A study of Homo sapiens with 4 samples.

Results

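The genes described here are those whose symbol begins with ZNF and a number, the largest named block of zinc finger genes on the array. They were taken by symbol from the platform's probe table. The symbols alone decide membership, but the set was picked for study with earlier results of these data known. Among these was that several of its genes had higher ratios, doxycycline over no doxycycline, on arrays with inhibitor. The rule found 96 probes of 64 genes, among 10169 probes of 4604 genes with 1 symbol each. Most ZNF genes encode proteins with tandem C2H2 fingers, small loops in which 2 cysteines and 2 histidines hold a zinc ion and which together read a stretch of DNA. Many also carry a KRAB domain, which recruits the corepressor TRIM28 and through it the histone methyltransferase SETDB1, HP1 proteins and other silencing factors. The KRAB members are numerous in primates, lie largely in clusters on chromosome 19 and are best known for repressing transposable elements. Others bind promoters, serve as chromatin adaptors or bind RNA.

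RNA from OCI-Ly3 cells was profiled on 4 two-colour arrays. OCI-Ly3 is an established human line from a diffuse large B-cell lymphoma, of the subtype that resembles activated B cells. It carried a hairpin RNA that doxycycline switches on and that targets CHUK, the gene of the kinase IKKa. On every array the Cy5 channel held cells given doxycycline at 20 ng/ml and the Cy3 channel cells without it, with no dye swap. On 2 arrays both channels also had MLN120b, an inhibitor of the sister kinase IKKb, at 12.5 uM: for 24 h with 3 days of doxycycline, and for 3 h with 2 days. On the other 2 arrays neither channel had inhibitor, and doxycycline was given for 3 or 2 days. One line served throughout and the labels name no separate cultures, so a p-value reflects how far these arrays vary among themselves, which may be technical. A value is the log2 ratio of the channels, above 0 where the induced cells were higher in the likely direction of the ratio, doxycycline over no doxycycline. That direction follows the usual dye order and the sign of CHUK, whose ratio was -1.01 and -1.30 on the 24 h and 3 h inhibitor arrays, and -0.87 and -0.59 at 3 and 2 days without inhibitor. Were the ratio the other way round, every sign below would turn. A ratio holds no expression level, so it cannot show whether OCI-Ly3 expresses a member strongly or weakly, and in bulk cultures fewer cells with a transcript and less of it per cell cannot be told apart. For the same reason B cell markers could not be used as a check beyond their presence: 9 of 10 listed ones had a value on all 4 arrays, as did 5 of 6 T cell markers.

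Coverage came first, since missing values were frequent. Of the 96 ZNF probes, 34 (35.4%) were empty on at least 1 array, as were 33.2% of all probes with a gene symbol. The ZNF probes had values for 72.9% on the 24 h inhibitor array, 78.1% on the 3 h inhibitor array, 78.1% at 3 days without inhibitor and 96.9% at 2 days without inhibitor. Among all probes with a symbol these shares were 78.5%, 80.8%, 84.1% and 95.1% in the same order of arrays. The array of 2 days of doxycycline alone was thus the fullest, and 11 ZNF probes had a value there and nowhere else. The gene's value on an array was the mean of its probes with a value there. By this rule 46 of the 64 members had a value on all 4 arrays and 18 did not. Of these 18, 5 were measured on 1 array, and ZNF776 on none. Of the 64 members 43 rested on 1 probe, and no member had more than 4.

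**Figure D1:**
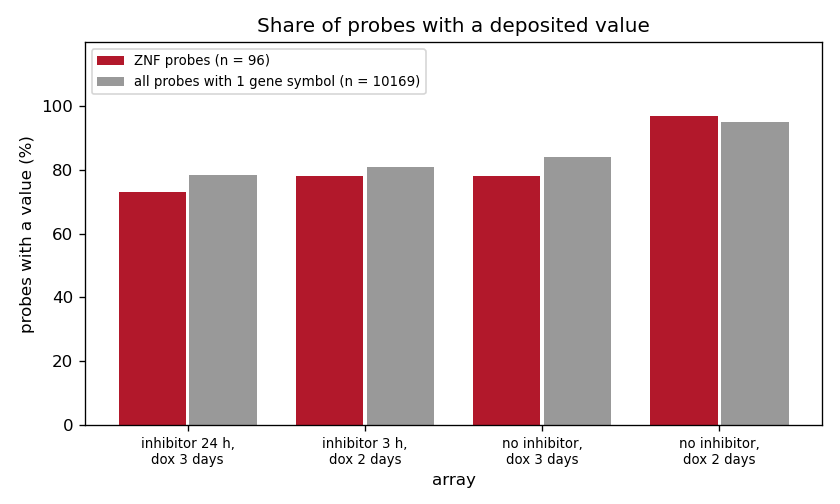
Share of probes with a deposited value on each array (percent, bars from 0), for the 96 ZNF probes and for all 10169 probes with 1 gene symbol. ZNF probes were covered least on the 24 h inhibitor array (72.9%) and most on the array of 2 days of doxycycline alone (96.9%).

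The arrays with inhibitor compare induced and uninduced cells while IKKb was blocked. With a fixed dye order and no doxycycline-treated cells that lack the hairpin, effects of the hairpin, of doxycycline and of the dyes cannot be told apart in a ratio against 0. In this setting 3 of the 46 members passed: ZNF83 and ZNF440 were higher and ZNF131 lower in induced cells. The test was limma's moderated test over 3675 genes, with calls at a Benjamini-Hochberg adjusted p under 0.05. It called 3.51% of all genes, 1.28% higher and 2.23% lower, and 3 of 46 members is a share of very few genes. At an unadjusted p under 0.05 there were 13 members (27.1% of all genes), 10 higher (13%) and 3 lower (14.1%). The members' median log2 ratio with inhibitor was 0.037, against 0.0018 over all genes tested, and 26 of 46 members lay above 0 (50.3% of all genes). Over the 4 arrays together, 7 members were above 0 on every one (17.3% of all genes) and 9 below 0 on every one (23.8%).

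ZNF83, a C2H2 protein gene of chromosome 19, had log2 ratios of 1.49 and 0.60 on the 24 h and 3 h inhibitor arrays, against 0.32 and 0.19 at 3 and 2 days without inhibitor. Both inhibitor arrays lay above both others. The mean with inhibitor was 1.05 ± 0.63 (SD, n = 2), a 2.07-fold difference (SE 0.20 on the log2 scale, limma adjusted p = 0.0466). That SE assumes the same spread in both groups, though the SD of the 2 arrays without inhibitor was 0.086. The gene had 2 probes, but the second had a value on the array of 2 days of doxycycline alone and on no other, so all 3 remaining values rest on 1 probe.

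ZNF440, which encodes a KRAB zinc finger protein of chromosome 19, ordered the inhibitor arrays the other way. It had 0.61 at 24 h and 1.13 at 3 h of inhibitor, against 0.16 and -0.04 at 3 and 2 days without it. The groups did not overlap. Its mean with inhibitor was 0.87 ± 0.36 (SD, n = 2), 1.83-fold (SE 0.15, limma adjusted p = 0.0396), from 1 probe.

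ZNF131, a protein with a BTB domain that binds the methyl-CpG reader Kaiso, was the lowest member with inhibitor. Its ratios were -1.33 at 24 h and -0.97 at 3 h of inhibitor, against -0.12 and -0.54 at 3 and 2 days without inhibitor. It was below 0 on every array, and the inhibitor arrays were the lower pair. The mean was -1.15 ± 0.25 (SD, n = 2), 2.22-fold lower (SE 0.15, limma adjusted p = 0.0242), also from 1 probe.

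The promoters of these 3 genes are shown because they are the members that passed, on opposite sides of 0. Each runs from 250 bases before to 50 after the annotated start (RefSeq, GRCh38.p14), 5′ to 3′. Capitals mark matches, on either strand, to GGGCGG (the GC box) or CCAAT. ZNF83 lies at chr19:52690447-52690746 on the minus strand, ZNF440 at chr19:11814023-11814322 on the plus strand and ZNF131 at chr5:43121211-43121510 on the plus strand.
ZNF83: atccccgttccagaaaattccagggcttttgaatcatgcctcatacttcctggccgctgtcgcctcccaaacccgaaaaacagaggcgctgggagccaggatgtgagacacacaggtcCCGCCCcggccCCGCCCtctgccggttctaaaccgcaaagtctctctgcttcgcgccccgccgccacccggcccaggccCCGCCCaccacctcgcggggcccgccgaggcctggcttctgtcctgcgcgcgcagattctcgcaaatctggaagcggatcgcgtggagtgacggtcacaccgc
ZNF440: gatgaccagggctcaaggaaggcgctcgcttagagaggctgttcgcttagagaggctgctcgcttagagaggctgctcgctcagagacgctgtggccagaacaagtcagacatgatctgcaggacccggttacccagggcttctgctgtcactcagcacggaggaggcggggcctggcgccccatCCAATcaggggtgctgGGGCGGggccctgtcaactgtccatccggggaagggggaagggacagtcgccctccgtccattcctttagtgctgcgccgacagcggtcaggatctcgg
ZNF131: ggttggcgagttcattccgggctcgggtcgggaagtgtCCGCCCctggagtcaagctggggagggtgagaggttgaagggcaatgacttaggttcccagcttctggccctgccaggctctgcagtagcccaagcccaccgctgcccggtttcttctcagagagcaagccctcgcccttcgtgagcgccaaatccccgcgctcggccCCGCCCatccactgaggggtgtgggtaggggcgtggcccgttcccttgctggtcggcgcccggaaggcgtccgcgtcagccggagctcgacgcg

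The ZNF83 promoter held 3 matches to GGGCGG, that of ZNF440 held 1 and that of ZNF131 held 2, while ZNF440 also held 1 CCAAT. None of these 3 windows held a match to the NF-kB consensus or to TATAAA. A promoter was listed for 53 members. Of these 53, 6 (11.3%) held the NF-kB consensus, against 10.8% of 27305 promoters in the table. TATAAA, the TATA box, was in 3.77% of the members' windows and in 12% of all windows, GGGCGG in 52.8% and 44.6%, and CCAAT in 49.1% and 35.7%. The members' windows had a median of 21 CpG dinucleotides (quartiles 16 and 26), against 14 over all windows (quartiles 3 and 28). These are matches of letters and describe the windows only. The 27305 promoters were not filtered to genes on the array or to protein-coding genes, so the sets compared are unlike.

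The highest means with inhibitor after the called genes belonged to ZNF653 and ZNF80. ZNF653, a zinc finger repressor gene, had 0.88 and 0.54 on the 24 h and 3 h inhibitor arrays, against 0.49 and -0.08 at 3 and 2 days without inhibitor, a mean of 0.71 ± 0.24 (SD, n = 2) with a limma adjusted p of 0.064 (0.00763 with doxycycline day as a block). ZNF80 rested on a single array: 1.38 at 24 h of inhibitor, 0.03 at 3 h, 0.11 and 0.18 at 3 and 2 days without inhibitor. Its mean of 0.70 ± 0.95 had a limma adjusted p of 0.165 (0.0583 with the block). The fit with the block called 25.4% of all genes with inhibitor, and has fewer residual degrees of freedom than the fit without it.

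ZNF418 likewise had 1.16 at 24 h and -0.03 at 3 h of inhibitor, against 0.45 and -0.08 at 3 and 2 days without it (limma adjusted p = 0.226, and 0.0243 with the block). It is named after its values were seen, because it exceeded a log2 ratio of 1 at 24 h, as did ZNF83 and ZNF80 alone among the other members with all 4 values. Neither ZNF80 nor ZNF418 held that height at 3 h.

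A smaller shift appeared on both inhibitor arrays in ZNF14, ZNF395, ZNF117, ZNF394 and ZNF141, none of which passed. With doxycycline day as a block, which pairs the arrays, limma's adjusted p was 0.0298 for ZNF14, 0.0309 for ZNF395 and 0.0332 for ZNF117. It was 0.0469 for ZNF394 and 0.0718 for ZNF141. That fit called 12 of 46 members with inhibitor, beside 25.4% of all genes. ZNF14, a KRAB zinc finger gene, had 0.50 and 0.35 at 24 h and 3 h of inhibitor, against -0.05 and 0.15 at 3 and 2 days without (limma adjusted p = 0.0886). ZNF395, a hypoxia-induced factor reported to be activated through IkB kinase signalling, had 0.42 and 0.33 with inhibitor, against 0.09 and -0.16 without. ZNF117 had 0.39 and 0.32 with inhibitor, against 0.06 and 0.01 without. In these 3 genes, as in ZNF394 and ZNF141, both inhibitor arrays stood above both others. ZNF394 had 0.42 and 0.27 with inhibitor, against 0.21 and -0.24 without. ZNF281, a factor that binds GC-rich promoters, had 0.26 and 0.50 with inhibitor, against 0.26 and 0.20 without (limma adjusted p = 0.106, and 0.0369 with the block). There the 24 h value equalled that of 3 days without inhibitor to 2 decimals.

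ZNF141, a KRAB gene, shows how far probes of one gene can part. Its 3 probes had 0.98, 0.19 and -0.09 at 24 h of inhibitor, an SD of 0.55, the widest among 11 members with several complete probes. At 3 h they had 0.46, 0.09 and 0.11. The averaged gene had 0.36 and 0.22 on these arrays, against -0.13 and -0.02 at 3 and 2 days without inhibitor, and the first probe carries most of that height. Across the 11 members the median SD between probes was 0.12 at 24 h and 0.21 at 3 h of inhibitor, and 0.15 and 0.17 at 3 and 2 days without it. Over 1723 genes of the array these medians were 0.20, 0.18, 0.16 and 0.13. Members of a family of similar sequence can bind each other's probes, which was not tested because the probe sequences were not used here.

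On the low side with inhibitor, ZNF257 and ZNF292 followed ZNF131. ZNF257, a KRAB zinc finger gene, had -0.96 and -0.45 at 24 h and 3 h of inhibitor, against -0.45 and -0.43 at 3 and 2 days without (mean with inhibitor -0.70 ± 0.36, limma adjusted p = 0.0531, and 0.0114 with doxycycline day as a block). The 24 h value stood apart and the others were nearly equal. ZNF292, a large zinc finger gene recurrently mutated in chronic lymphocytic leukaemia, was less low with inhibitor, at -0.72 and -0.25, than without it, at -1.24 and -0.84. Its limma adjusted p with inhibitor was 0.118, and 0.0152 with the block.

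The next lowest means among genes below 0 on both inhibitor arrays were small. ZNF24, a SCAN-domain factor, had a mean of -0.24, ZNF22 -0.22, ZNF672 -0.20, ZNF518A -0.18, ZNF200 -0.17, ZNF638 -0.16 and ZNF227 -0.15, with adjusted p between 0.259 and 0.482. One of the 2 complete ZNF24 probes had -0.67 and -0.38 at 24 h and 3 h of inhibitor, while the other had -0.29 and 0.04.

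**Figure D2:**
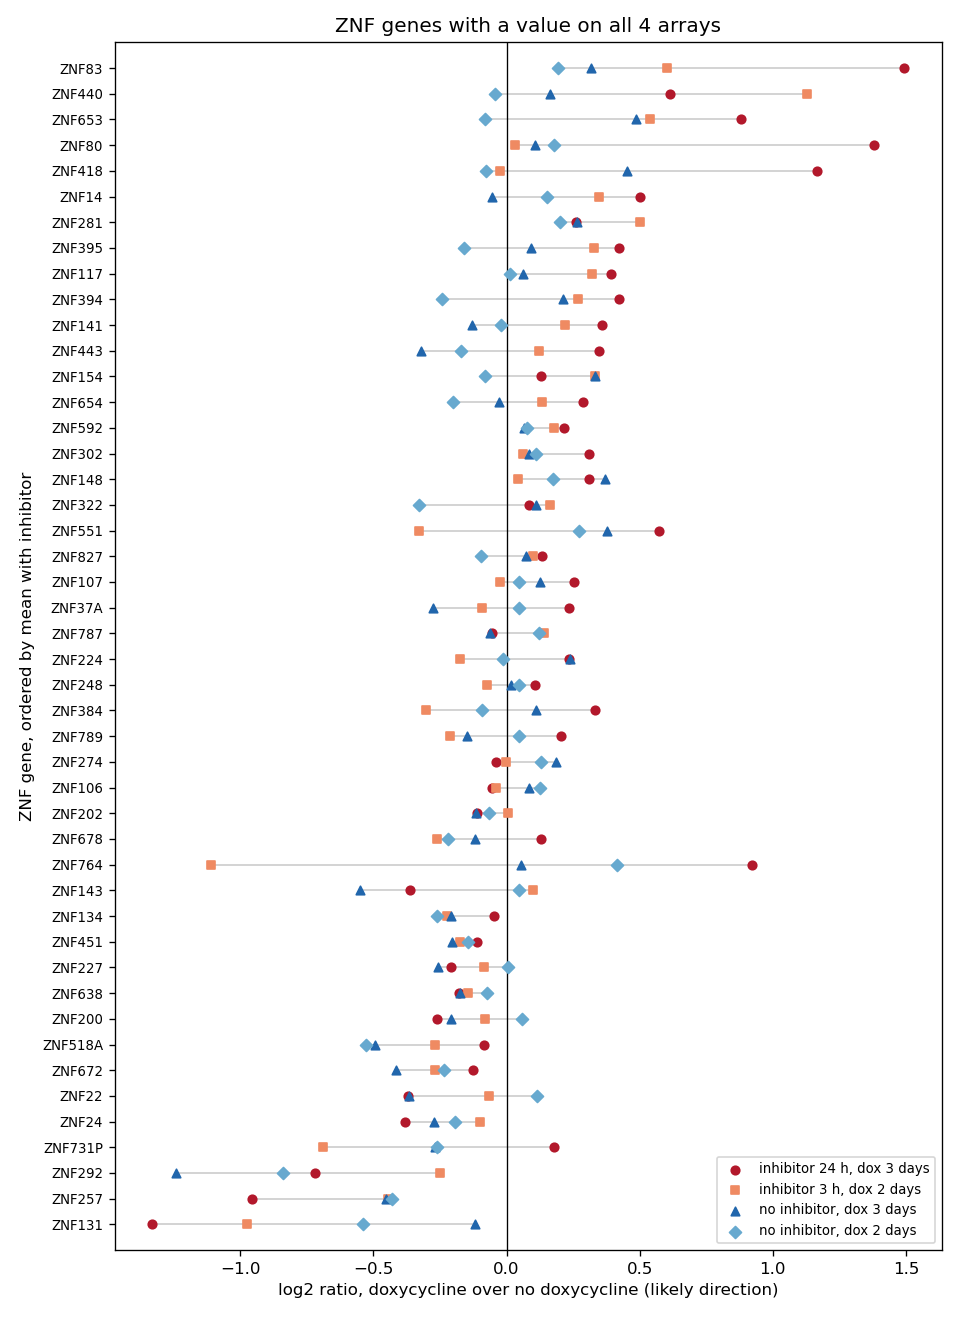
Log2 ratio (doxycycline over no doxycycline, likely direction) of the 46 ZNF genes with a value on all 4 arrays, 1 row a gene, ordered by the mean of the inhibitor arrays, with 1 symbol for each array and a grey line over the gene's range. ZNF83 and ZNF440 lead at means of 1.05 and 0.87, ZNF131 is lowest at -1.15, and most members lie close to 0 on every array.

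The 2 inhibitor arrays matched only in part, with a Pearson correlation of 0.41 over the 46 members (0.57 over all genes). The 24 h array correlated at 0.64 and 0.55 with 3 and 2 days without inhibitor (0.72 and 0.46 over all genes). For the 3 h array these values were 0.36 and 0.22 (0.49 and 0.51 over all genes). The 46 members had a median of 0.19 on the 24 h array, where 29 lay above 0, and of -0.024 on the 3 h array, where 21 did. Over all genes the medians were -0.012 and -0.015. At 24 h, 6 members were beyond 1.5-fold higher (9.71% of all genes) and 3 beyond 1.5-fold lower (7.78%). At 3 h, 2 were higher (1.71%) and 3 lower (3.29%). Only ZNF83 and ZNF440 were beyond 1.5-fold higher on both (0.925% of all genes), and only ZNF131 was lower on both (2.15%). ZNF764 crossed 1.5-fold in opposite directions, with 0.92 at 24 h and -1.11 at 3 h, against 0.06 and 0.41 at 3 and 2 days without inhibitor. It is 1 of 7 such genes among 3675 (0.19%). Time in inhibitor and days of doxycycline change together between these arrays and cannot be told apart.

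**Figure D3:**
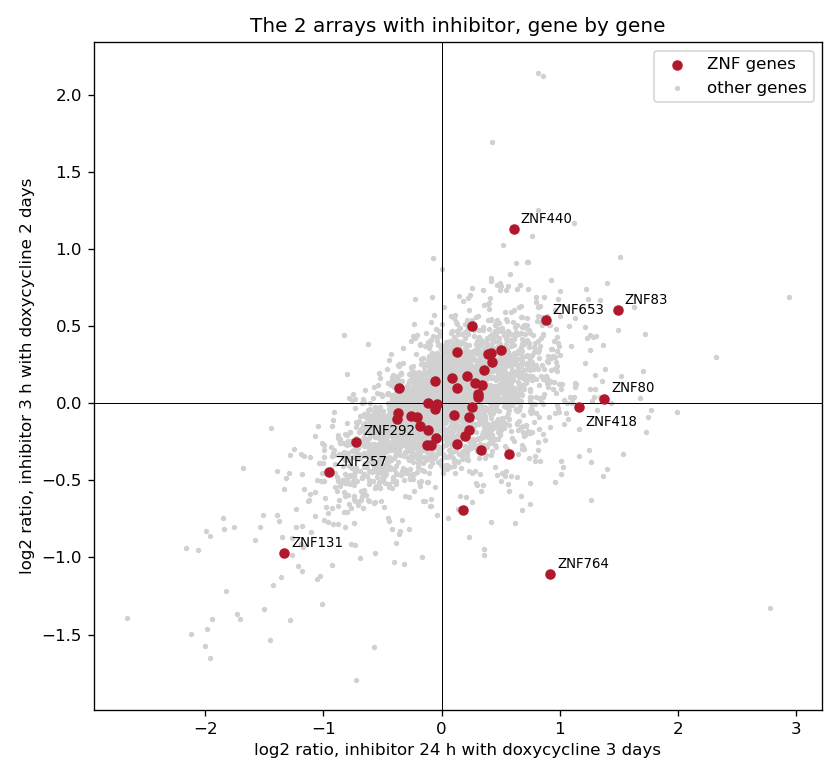
Each gene's log2 ratio with 24 h of inhibitor and 3 days of doxycycline (horizontal) against 3 h of inhibitor and 2 days of doxycycline (vertical); red points are the 46 ZNF genes, grey points the other genes. ZNF83 and ZNF440 lie high on both axes and ZNF131 low on both, while ZNF80 and ZNF418 are high at 24 h alone and ZNF764 has opposite signs.

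Without inhibitor the arrays compare induced and uninduced cells with IKKb not blocked, and here no ZNF gene passed. Limma called 0 of 3675 genes (0% of all genes), with 348 at an unadjusted p under 0.05 (9.47%). Of these, 4 were members, all lower (8.14% of all genes), and none was higher (1.33%). ZNF292 stood lowest at a mean of -1.04 ± 0.28 (SD, n = 2), 2.06-fold (limma adjusted p = 0.174). It was the 1 member beyond 1.5-fold lower on both arrays (0.871% of all genes). ZNF518A had -0.49 and -0.53 at 3 and 2 days, a mean of -0.51 ± 0.02 with an adjusted p of 0.249. ZNF257 had a mean of -0.44, ZNF131 -0.33 and ZNF672 -0.33. On the other side ZNF551 had a mean of 0.32, ZNF148 0.27, ZNF83 0.26, ZNF764 0.23 and ZNF281 0.23, none beyond 1.5-fold on both arrays. By array, 0 members were beyond 1.5-fold higher (1.47% of all genes) and 1 lower (4.57%) at 3 days, and 0 higher (0.0544%) and 1 lower (1.33%) at 2 days. The members' median was -0.025, against -0.014 over all genes, and 21 of 46 lay above 0 (47.1% of all genes).

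The difference between the groups asks whether induction moved ZNF transcripts differently once IKKb was blocked, and no member passed. Limma called 0 of 3675 genes (0%), with 169 at an unadjusted p under 0.05 (4.6%), and the adjusted p was 0.998 for every member. At the unadjusted threshold stood 6 members, 5 higher (2.8% of all genes) and 1 lower (1.8%). ZNF440 (0.81, SE 0.22), ZNF83 (0.79, SE 0.29), ZNF80 (0.56, SE 0.40), ZNF292 (0.56, SE 0.23) and ZNF653 (0.51, SE 0.24) had the largest positive differences. ZNF131 (-0.82, SE 0.22), ZNF764 (-0.33, SE 0.58), ZNF257 (-0.26, SE 0.21), ZNF551 (-0.20, SE 0.29) and ZNF274 (-0.18, SE 0.16) had the most negative.

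By day, ZNF440 differed by 0.45 at 3 days and 1.17 at 2 days, and ZNF83 by 1.18 and 0.41. ZNF292 differed by 0.52 at 3 days and 0.59 at 2 days, the most even pair of these. The difference of ZNF80 came from the later day, with 1.27 at 3 days and -0.15 at 2 days. ZNF551 had 0.20 and -0.60, and ZNF764 0.87 and -1.52, so their signs turned with the day.

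Counted by overlap, 14 of the 46 members had both inhibitor arrays above both others (18.3% of all genes), and 3 had them below (11.3%). The 14 were ZNF83, ZNF440, ZNF653, ZNF14, ZNF395, ZNF117, ZNF394, ZNF141, ZNF292, ZNF518A and, chosen after their values were seen, ZNF443, ZNF592, ZNF654 and ZNF827. ZNF443, a KRAB zinc finger gene, had 0.35 and 0.12 with inhibitor, against -0.32 and -0.17 without. The probes of ZNF592 parted. One had 0.40 and 0.45 at 24 h and 3 h of inhibitor, against 0.08 and 0.05 at 3 and 2 days without. The other had 0.025 and -0.10, against 0.05 and 0.10, so its inhibitor arrays were the lower pair. ZNF292 and ZNF518A belong to the 14 while below 0 on all arrays. The 3 below were ZNF131, ZNF274 and, named after its values were seen, ZNF106. The median difference over the members was 0.10, against 0.02 over all genes. It was 0.19 at 3 days and 0.0025 at 2 days, a gap wider than the median itself. In all, 32 of 46 members had a difference above 0 (54.2% of all genes). At both days 19 members had the higher ratio with inhibitor (33.1% of all genes).

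Incomplete probes gave other ratios than complete ones, and by how much depended on the array. On the array of 3 days of doxycycline alone, the 62 complete ZNF probes had a median log2 ratio of -0.081 and the 13 incomplete probes with a value 0.30, a difference of -0.38. There 23 of 62 complete and 11 of 13 incomplete probes lay above 0. On the 24 h inhibitor array the medians were 0.051 for the 62 complete and 0.40 for the 8 incomplete probes, a difference of -0.35. Both of these are 3-day arrays, and on both the incomplete probes were the higher kind.

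The 2-day arrays did not show this. At 3 h of inhibitor the complete probes had a median of 0.018 and 13 incomplete probes -0.29, a difference of 0.31 in the other direction. At 2 days without inhibitor the medians were -0.054 and -0.009, with 31 incomplete probes. Averaged over the group, complete minus incomplete was -0.021 with inhibitor, where the 2 arrays pointed in opposite directions, and -0.21 without.

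Over all probes with a symbol the pattern on the 3-day arrays was of the same size. Complete minus incomplete was -0.34 at 24 h of inhibitor and -0.35 at 3 days without, against -0.065 at 3 h of inhibitor and -0.001 at 2 days without. The reversed difference of ZNF probes at 3 h was therefore not seen over all probes. On the 3-day arrays incomplete probes lay beyond 1.5-fold more often. At 24 h, 12 of 62 complete ZNF probes did so in either direction, against 5 of 8 incomplete ones. Over all probes the shares at 24 h were 18.8% for complete and 36.4% for incomplete probes. At 3 days without inhibitor 2 of 62 complete ZNF probes lay beyond 1.5-fold, against 4 of 13 incomplete ones, all 4 higher. Such counts hold a shift of the median as well as spread. Interquartile ranges of complete and incomplete ZNF probes were 0.55 and 1.17 at 24 h, and 0.36 and 0.70 at 3 days without inhibitor. Over all probes they were 0.55 and 0.74 at 24 h, but 0.40 and 0.41 at 3 days without inhibitor. On the 2-day arrays the picture for ZNF probes depended on the measure. At 3 h of inhibitor 5 of 62 complete and 1 of 13 incomplete probes lay beyond 1.5-fold, with interquartile ranges of 0.34 and 0.44. At 2 days without inhibitor 1 of 62 complete and 1 of 31 incomplete probes did, with interquartile ranges of 0.29 and 0.25. Over all probes the shares at 3 h were 6.75% for complete and 14.7% for incomplete probes. The sources used here do not give the reason for an empty value, and the part of signal strength was not tested.

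**Figure D4:**
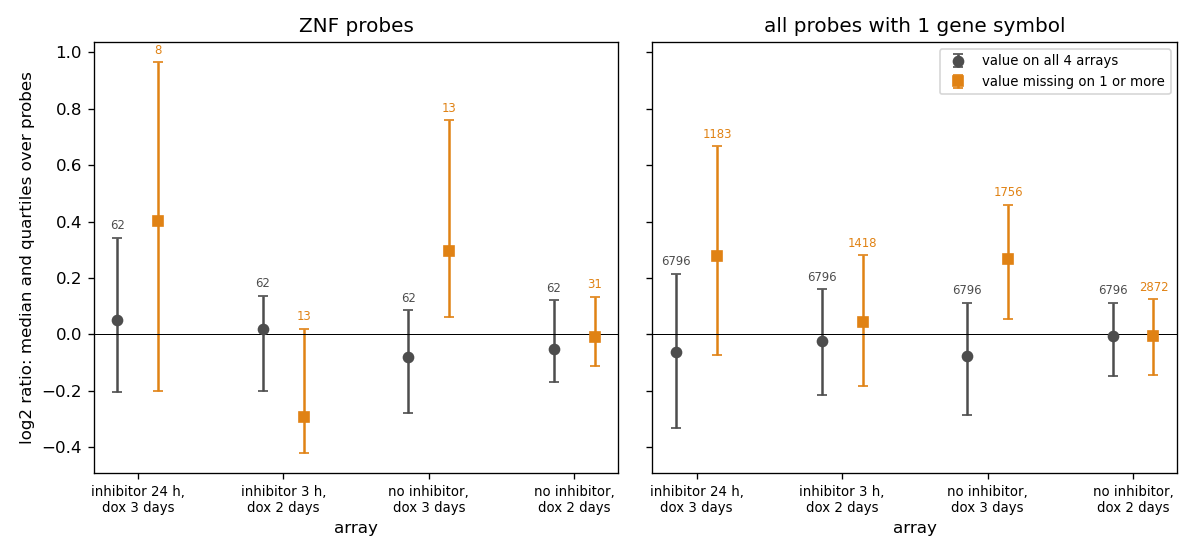
Median log2 ratio (points) and quartiles (bars) over probes with a value on all 4 arrays and over probes missing on 1 or more, on each array, for ZNF probes (left) and all probes with 1 gene symbol (right); numbers above the bars count probes. Incomplete probes lie above complete ones by 0.35 and 0.38 on the 3-day arrays for ZNF probes, and below them by 0.31 at 3 h of inhibitor.

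Members that hold both kinds of probe allow the comparison within a gene. At 3 days without inhibitor the incomplete probe was the higher one in 6 of 6 such members, with a median complete minus incomplete of -0.52. At 24 h of inhibitor it was higher in 3 of 3, but at 3 h in 1 of 4 and at 2 days without inhibitor in 3 of 9. Over the whole array it was higher in 76.7% of 807 genes at 3 days without inhibitor and in 66.9% of 619 at 24 h of inhibitor, against 55.8% at 3 h and 50.2% at 2 days without.

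ZNF224, a KRAB protein gene known for repressing aldolase A, illustrates this. Its complete probe had -0.22 and -0.18 at 24 h and 3 h of inhibitor, against -0.28 and -0.32 at 3 and 2 days without. Its incomplete probe had 0.69 at 24 h, no value at 3 h, and 0.76 and 0.29 at 3 and 2 days without. The averaged gene therefore had a mean of 0.03 with inhibitor, while complete probes alone gave -0.20. ZNF322, likewise mixed and named after its values were seen, had -0.65 from its complete and 0.87 from its incomplete probe at 3 days without inhibitor.

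In all 11 of the 46 members mix probes in this way, ZNF83 among them. With complete probes only, ZNF83 (adjusted p = 0.0392), ZNF440 (0.0312) and ZNF131 (0.0183) were called by limma as before and ZNF257 (0.0443) joined them, 4 of 46 members beside 4.57% of 3589 genes (1.53% higher, 3.04% lower).

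Among the 18 members without a value on all arrays, the extreme values were on single arrays. ZNF441 had 1.99 at 24 h of inhibitor, the highest of any member on any array, but -0.75 at 3 h, no value at 3 days and 0.04 at 2 days without. ZNF354C had 1.69 at 24 h of inhibitor and 0.006 at 2 days without, with no value on the other arrays. ZNF37B had 1.20 at 3 days and 0.14 at 2 days without inhibitor and no value with it. At the low end, beside ZNF441 at 3 h, were ZNF587 with -0.62 and -0.49 at 24 h and 3 h of inhibitor and -0.09 at 2 days without, and ZNF35, with -0.42 at 3 h of inhibitor, against -0.53 and -0.39 at 3 and 2 days without. ZNF35 had 1 sign on its 3 arrays. These genes were not tested.

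Of the members with well known roles, ZNF281 and ZNF224 are described above and 6 others follow. ZNF143, which binds promoters and chromatin loop anchors, had -0.36 and 0.10 at 24 h and 3 h of inhibitor, against -0.55 and 0.05 at 3 and 2 days without: low at 3 days in both groups. ZNF148, a factor of GC-rich promoters, had 0.31 and 0.04, against 0.37 and 0.18. ZNF274, which brings SETDB1 to ZNF genes themselves, had -0.04 and -0.003 with inhibitor, against 0.19 and 0.13 without, so its inhibitor arrays were the lower pair. ZNF202, a repressor of lipid metabolism genes, had -0.11 and 0.005, against -0.11 and -0.07. ZNF384, a fusion partner in B-cell leukaemia, had 0.33 and -0.30, against 0.11 and -0.09. ZNF638, which recruits the HUSH silencing complex to retroviral DNA, had -0.18 and -0.14, against -0.18 and -0.08, below 0 on all 4 arrays. None of these 6 passed in any comparison.

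Silencing factors linked to KRAB proteins were followed as a list of 20 corepressor genes, of which 10 had a value on all 4 arrays. TRIM28 and SETDB1 were listed but are not among these 10. The 10 were CBX3, CBX5, HDAC1, HDAC2, CHD4, DNMT1, UHRF1, ATF7IP, TASOR and PPHLN1. None of the 10 was called in any comparison. Their median was -0.075 with inhibitor and -0.035 without, with 6 and 7 of 10 below 0. With inhibitor the lowest means were those of 2 genes of the HUSH complex. TASOR, its scaffold, had -0.39 and -0.90 at 24 h and 3 h of inhibitor, against -0.22 and -0.33 at 3 and 2 days without (mean with inhibitor -0.65, limma adjusted p = 0.0624). Only 2 of the 4 TASOR probes were complete, so its values on different arrays can average different probes. PPHLN1, the periphilin subunit, had -0.57 and -0.34, against -0.50 and -0.42 (mean with inhibitor -0.45, limma adjusted p = 0.0787). Both genes were below 0 on every array. So was CHD4, the helicase of the NuRD complex, with -0.64 and -0.08 with inhibitor, against -0.44 and -0.18 without, and its mean of -0.31 without inhibitor lay below that of TASOR, -0.28.

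Other zinc finger families, named ZBTB, ZFP, ZSCAN, ZKSCAN, KLF, IKZF, EGR or PRDM with a number, gave 25 genes on all 4 arrays. Their median was 0.11 with inhibitor and 0.018 without, beside 0.037 and -0.025 for the ZNF members. With inhibitor 1 of the 25 was called higher (1.28% of all genes) and none lower (2.23%), too few to describe these families by. Of the families, ZBTB with 8 genes had a median of 0.16 with and -0.02 without inhibitor, and IKZF with 2 genes -0.33 and -0.32.

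Position on the genome was described with RefSeq names and order (GRCh38.p14). Of the 64 members 24 lie on chromosome 19, and 15 of these were measured on all 4 arrays. Those 15 had a median of 0.18 with and 0.098 without inhibitor, with 11 above 0 with inhibitor. The 31 members elsewhere had -0.0055 and -0.077, with 15 above 0. The 175 measured genes of chromosome 19 that are no members had -0.014 with and -0.035 without inhibitor. The median difference, with minus without inhibitor, was 0.098 on chromosome 19 and 0.10 elsewhere, so the offset between the sets lay in both groups of arrays.

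Of 8 pairs of neighbouring members with values at 3 h of inhibitor, at most 5 protein-coding genes apart, 4 had the same sign there and 4 opposite signs. ZNF440 and ZNF441, with 1 protein-coding gene between them, had 0.61 and 1.99 at 24 h of inhibitor but 1.13 and -0.75 at 3 h. ZNF551 and ZNF154, next to each other, had 0.57 and 0.13 at 24 h and -0.33 and 0.33 at 3 h of inhibitor. ZNF789 and ZNF394, next to each other on chromosome 7, had 0.20 and 0.42 at 24 h and -0.21 and 0.27 at 3 h. ZNF107 and ZNF117 were the remaining pair with opposite signs at 3 h, and had 0.255 and 0.39 at 24 h. ZNF248 and ZNF37A, with 2 genes between them on chromosome 10, had 0.11 and 0.23 at 24 h and -0.07 and -0.09 at 3 h of inhibitor. ZNF134 and ZNF551 had -0.22 and -0.33 at 3 h, ZNF224 and ZNF227 -0.18 and -0.09, and ZNF587 and ZNF418 -0.49 and -0.03. At 24 h the signs within each of these pairs were opposite, with -0.05 and 0.57, 0.24 and -0.21, and -0.62 and 1.16. Neighbours were not compared with other pairs.

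The calls among members rest on few arrays and on how their spread was estimated. With the days of doxycycline as a replicate block, 12 of 46 members passed with inhibitor, 9 higher and 3 lower, beside 25.4% of all genes, and ZNF292 and ZNF518A passed as lower without inhibitor, beside 2.34%. When either of the arrays of doxycycline alone was left out, none of the 46 passed with inhibitor (0.299% of all genes). ZNF83 also fell short without the 24 h inhibitor array (log2 ratio 0.60, limma adjusted p = 0.0538), while without the 3 h array 10 members passed, beside 24% of all genes. Centring each array on its median took ZNF83 to a limma adjusted p of 0.0503. Scaling the arrays to equal spread took ZNF131 to 0.0532 and ZNF440 to 0.0751.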

How the data were processed

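The members and lists were chosen with earlier results of these data known. The authors deposited log ratios of probes, taken as log2 since values from -5.61 to 7.49 would span too many orders of magnitude on a log10 scale. The sources used here do not give the background correction, normalization, spot filter or cause of missing values. Signal over background is therefore unknown, and precision is limited by having 4 arrays. Probes were named through the platform annotation: of 15246, 10169 had 1 symbol, 4 several and 5073 none, and gene identifiers of 10128 matched RefSeq (GRCh38.p14, used for names, order and promoters). Of the 64 members 62 matched by identifier, and ZNF37B and ZNF605 kept their listed symbol.

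The value of a gene on an array was the mean over its probes with a value there, and 3675 genes with a value on all 4 arrays were fitted. limma 3.58.1 (R 4.3.3; lmFit, eBayes) fitted group means (2 arrays in each group), with 2 residual and 4.95 prior degrees of freedom. Tests were two-sided with Benjamini-Hochberg adjustment over all genes. The arrays of a group differ in time, so the spread includes change with time. The fit was tested on simulated data. Doxycycline day, given in the labels, pairs arrays across groups: deviations from the group means correlated at 0.43 between same-day arrays, across genes.

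Genes named are the called members, the 10 highest and 10 lowest means with inhibitor, the 5 highest and 5 lowest without and in the difference (with 1 sign on both arrays of the group for the means), the 3 highest and 3 lowest single values among members without all 4 arrays, and a fixed set with known roles. Others are marked as named after their values were seen. Alternatives were complete probes only, genes on at least 1 array per group, median centring, equal spread, the day as a replicate block, single probes, each array left out, the median over probes, a robust prior and an adjusted p under 0.10.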

Additional observations from a re-analysis of the deposited data

How the results depend on the processing

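The number of members called with inhibitor, 3 as reported, was 1 after scaling arrays to equal spread (53 of 3675 genes), 12 with doxycycline day as a replicate block (933 genes), 6 at an adjusted p under 0.10 (beside 14.6% of all genes) and 7 of 62 on single probes (beside 11.7% of probes), and 0 to 10 with single arrays left out (11 to 881 genes), so all genes moved with the members. Without inhibitor the count of 0 became 1 after scaling (112 genes), 2 with the replicate block (86 genes) and 1 on single probes (70 probes), and lay between 0 and 3 with arrays left out (0 to 200 genes). With an array left out its group has a lone array, which limma assumes to vary like the other group. For the difference it was 0 to 4 with arrays left out (0 to 142 genes) and 0 under the replicate block and the other settings run. The median ratio with inhibitor lay between -0.024 and 0.19 with arrays left out. Without inhibitor it was -0.0056 after centring and -0.046 after scaling, and lay between -0.033 and -0.006 with arrays left out. Other settings moved these medians and the probe comparison by less than the spread between arrays, but the sign with inhibitor was not fixed: the median was -0.013 on single probes, and complete minus incomplete, -0.021 as reported, was 0.039 after scaling, 0.017 on gene means and 0.14 for probes missing on exactly 1 array.

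Of 46 named values followed through 552 alternatives, 500 kept sign and side of the threshold and 12 turned sign. ZNF224 with inhibitor turned to -0.20 on complete probes and on single probes, to -0.014 after scaling and to -0.18 to 0.24 with arrays left out. ZNF384 turned to -0.048 after scaling and lay between -0.30 and 0.33 with arrays left out. In the difference ZNF257 turned to 0.022 after scaling. With arrays left out ZNF143 lay between -0.36 and 0.10 and ZNF202 between -0.11 and 0.0045 with inhibitor, and the differences of ZNF80 between -0.11 and 1.24, ZNF551 between -0.65 and 0.25 and ZNF764 between -1.34 and 0.69. The causes were not tested.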
